A study of Mus musculus with 12 samples.

Results

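The genes H2-Aa, H2-Ab1, H2-Eb1 and Cd74 encode chains of mouse major histocompatibility complex (MHC) class II and the invariant chain that accompanies them. They were followed over 12 microarrays from mouse hippocampus. All probe sets annotated with these symbols were taken, which gave 4 of the 12488 probe sets on the array, 1 per gene, and 4 of its 8252 named genes. All 4 passed the filter on low values. The genes were selected on their measured levels over these same 12 arrays. Their own levels and differences are therefore a description, without a test, and nothing is read from the count of them that passed a threshold.

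The mice were wild type or carried VP16-CREB (VC mice), in which a viral activation domain is joined to the transcription factor CREB so that it is always active, and which doxycycline (dox) keeps silent. Whole hippocampus was taken in wild type (n = 2 arrays), in VC mice kept on dox (n = 1), and in VC mice 1 week (n = 2), 2 weeks (n = 2) and 5 weeks (n = 1) after dox removal. In a reversed sample (n = 1), VC mice had the transgene on for 3 weeks and then off again, with dox, for 2 weeks. Its title names VC mice while its description says wild type, and it was placed by its title. Microdissected CA1, a subfield of the hippocampus, was taken in wild type (n = 1) and in VC mice 3 weeks after dox removal (n = 2). The never-induced group joins both wild-type hippocampi with VC hippocampus on dox (n = 3). Each hippocampal sample pooled 6 to 10 mice. The errors therefore measure the spread between pools and may understate the spread between mice. The labels were read for the promoter that drives the transgene, the strain, the age and sex of the mice and the pool size of CA1: not given in the sources used here.

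MHC class II molecules are pairs of an alpha and a beta chain that present peptides from endocytosed protein to CD4+ T cells. In the mouse, H2-Aa and H2-Ab1 encode the pair called I-A, and H2-Ea and H2-Eb1 the pair called I-E. Cd74, the invariant chain, binds new class II pairs in the endoplasmic reticulum, fills their groove and guides them to endosomes, where cathepsins degrade it. In resting brain, class II is scarce and is found mainly on macrophages at the borders and on some microglia, and reactive microglia are known to increase it. Transcription of these genes depends on a shared promoter module, bound by RFX, NF-Y and CREB-family proteins, and on the coactivator CIITA. CREB-family proteins bind the sequence TGACGTCA, the cyclic AMP response element, and NF-Y binds CCAAT boxes.

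Promoters of 2 of the 4 genes are shown because the transgene encodes a CREB derivative. H2-Ab1 had no promoter in the set used and Cd74 was left out, so nothing is said of the motifs of these 2. They are the 150 bases before the annotated start, from RefSeq on GRCm38.p6. The TGACGTCA element and the 8-base run CTGATTGG, which holds an inverted CCAAT box, are in capitals. H2-Aa lies on the minus strand (chr17:34287824-34287973) and H2-Eb1 on the plus strand (chr17:34305717-34305866).
H2-Aa: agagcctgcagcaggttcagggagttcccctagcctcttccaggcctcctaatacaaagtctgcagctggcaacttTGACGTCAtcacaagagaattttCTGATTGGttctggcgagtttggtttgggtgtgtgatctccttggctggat
H2-Eb1: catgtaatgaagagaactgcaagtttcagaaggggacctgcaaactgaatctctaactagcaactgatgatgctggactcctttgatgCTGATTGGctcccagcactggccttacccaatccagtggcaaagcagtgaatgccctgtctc
In H2-Aa, TGACGTCA lies at -74 to -67 from the start and CTGATTGG at -51 to -44, with 15 bases between them. In H2-Eb1, CTGATTGG lies at -62 to -55, and the window held no TGACGTCA. CTGATTGG was the longest run that both windows shared. Both motifs were chosen after the sequences had been read. Both strands were searched in 32851 RefSeq promoters, each from 250 bases before the start to 50 after it. TGACGTCA was found in 1.79% of them, CTGATTGG in 4.1% (1346 promoters), and both in 0.0852% (28 promoters). Each match is a string of letters, not a measured binding site. Among tested genes with a promoter in the table, the 157 with TGACGTCA had a median log2 difference of 0.02 at 5 weeks against never-induced hippocampus. The 4232 without it had -0.02, and in induced against wild-type CA1 the medians were 0.00 and -0.02.

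Levels are log2 intensities, with every array brought to the same trimmed mean, 1000. Values under 65.7 were raised to it, which is a floor of 6.04 on the log2 scale. Correlations between arrays were 0.93 to 0.98 within hippocampus, 0.91 to 0.95 within CA1 and 0.83 to 0.92 between the regions. Wild-type hippocampus array 1 and the 3 CA1 arrays were deposited on a lower scale than the other 8 arrays. Of 2 tested probe sets for Creb1, the gene of CREB, the one with the clearer contrast read 6.04 to 6.33 in never-induced hippocampus. The induced hippocampal arrays read 8.31 to 9.63 with it and the reversed array 7.10. Wild-type CA1 read 6.04 and the VC CA1 arrays 8.86 and 9.56. With the other, never-induced arrays spanned 6.36 to 7.66 and the hippocampal arrays off dox 8.14 to 9.15. On that probe set the reversed array read 7.68, wild-type CA1 6.04 and the VC CA1 arrays 7.69 and 8.80. The labels do not say whether either detects the transgene.

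H2-Aa encodes the alpha chain of I-A. It lay at the floor of 6.04 on all 3 never-induced arrays, on both 1-week arrays and on the wild-type CA1 array. The 2-week arrays read 6.70 and 6.59, the 5-week array 9.90 and the reversed array 6.17. Both VC CA1 arrays were high, at 9.29 and 9.03. High values were thus limited to the 5-week array and both VC CA1 arrays, and the 2-week and reversed arrays lay just above the floor.

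H2-Ab1 encodes the beta chain of the same pair. The wild-type hippocampal arrays read 6.04 and 6.69 and the array on dox 6.36. The 1-week arrays read 6.63 and 8.30, the 2-week arrays 9.48 and 9.83, the 5-week array 10.40 and the reversed array 6.31. Wild-type CA1 read 6.04, and VC CA1 read 10.21 and 10.45. The 1-week arrays differed widely, with array 1 inside the never-induced range and array 2 above it. Both 2-week arrays were far above all never-induced arrays, and the reversed array was back among them.

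H2-Eb1 encodes the beta chain of I-E. The wild-type hippocampal arrays read 6.88 and 7.10 and the array on dox 7.09. The 1-week arrays read 8.28 and 8.11, the 2-week arrays 7.11 and 8.36, the 5-week array 9.55 and the reversed array 8.43. Wild-type CA1 read 8.11, and VC CA1 read 8.55 and 8.94. Array 1 of the 2-week pair lay next to the never-induced arrays, while the 1-week pair, the other 2-week array, the reversed array and wild-type CA1 lay close together above them.

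Cd74, the invariant chain, read 9.19 and 9.16 on the wild-type hippocampal arrays and 8.88 on the array on dox. The 1-week arrays read 9.45 and 9.39, the 2-week arrays 9.56 and 9.82, the 5-week array 11.93 and the reversed array 9.30. Wild-type CA1 read 8.01, the lowest of the 12 arrays, and VC CA1 read 10.78 and 11.24. The 5-week array stood well apart from the other hippocampal arrays, which spanned 8.88 to 9.82.

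**Figure D1:**
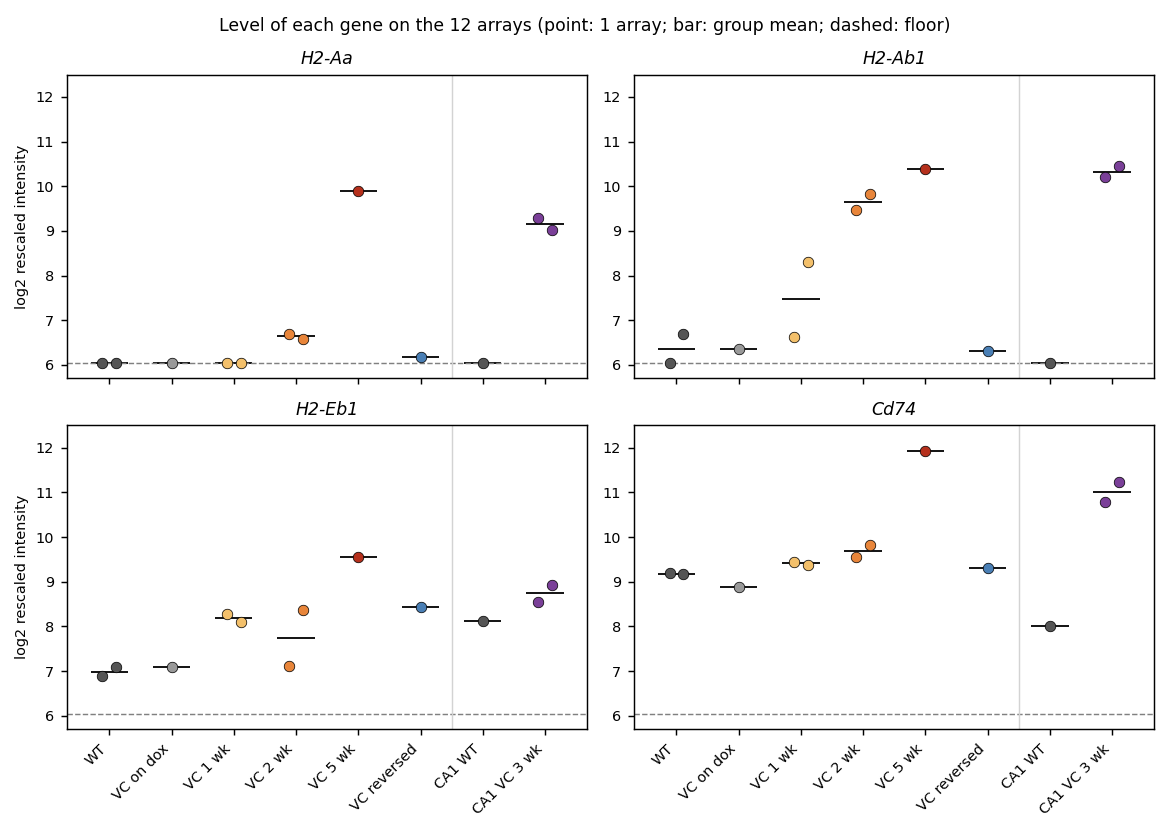
Level of each of the 4 genes on the 12 arrays, as log2 of the rescaled intensity. Points are arrays, bars are group means, the dashed line is the floor of 6.04, and the vertical line separates whole hippocampus from CA1. The 5-week array is the highest hippocampal array in each panel, and H2-Ab1 is already at 9.48 and 9.83 at 2 weeks.

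The genes had different courses after the transgene was switched on. A log2 difference is given with its standard error (SE) from a limma fit over the 7069 probe sets that lay above the median of their own array on at least 2 arrays. At 1 week, H2-Ab1 differed from never-induced hippocampus by 1.10 ± 0.43 and H2-Eb1 by 1.17 ± 0.33. Cd74 differed by 0.34 ± 0.19 and H2-Aa was at the floor on both sides. H2-Eb1 and Cd74 did not overlap with the never-induced arrays, as was the case for 12.4% of all tested probe sets. None of the 4 passed an adjusted p of 0.05 at 1 week, and 0.0283% of all tested probe sets did, higher or lower.

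At 2 weeks, H2-Ab1 was at least 9.79-fold higher than in never-induced hippocampus (9.65 ± 0.25 SD, n = 2, against 6.36 ± 0.33 SD, n = 3; log2 difference 3.29 ± 0.43 SE). The other 3 genes differed by less. H2-Aa differed by 0.60 ± 0.15, H2-Eb1 by 0.71 ± 0.33 and Cd74 by 0.61 ± 0.19. H2-Ab1 was the only member called higher at 2 weeks, where 0.156% of all tested probe sets were. That call was lost on leaving out any of the 3 never-induced arrays or either 2-week array, with differences of 3.12 to 3.47. H2-Ab1 ranked 3 of 7069 by the size of its difference at this time. All 4 genes read higher on both 2-week arrays than on any never-induced array, as did 12.4% of all tested probe sets; for H2-Eb1 array 1 this was 7.11 against at most 7.10.

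At 5 weeks all 4 genes were higher. H2-Ab1 was at least 16.4-fold (log2 difference 4.03 ± 0.54) and H2-Aa at least 14.6-fold (3.87 ± 0.18) above never-induced hippocampus. Cd74 was 7.22-fold (2.85 ± 0.24) and H2-Eb1 5.76-fold (2.53 ± 0.41) above it. All 4 were called higher, against 0.863% of all tested probe sets, a count that the choice of the genes fixes in part. The H2-Eb1 call was lost on leaving out any of the 3 never-induced arrays or either 1-week array (log2 differences 2.46 to 2.56), which left 3. The 5-week array lay above all never-induced arrays for all 4 genes, as for 26.7% of all tested probe sets, and the 2-week and 5-week arrays together did so for all 4, as for 6.14%. It was the highest of the 9 hippocampal arrays for all 4 genes, as for 13.6% of all tested probe sets. The 5-week group is 1 array, and its SE assumes that it varies like the replicated groups. The SE of H2-Aa is also small because 6 of its arrays lay at the floor, where no spread can be seen.

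Between 2 and 5 weeks the order of the steps changed. H2-Aa differed by 3.26 ± 0.20, Cd74 by 2.24 ± 0.26, H2-Eb1 by 1.82 ± 0.44 and H2-Ab1 by 0.74 ± 0.58. In the main fit the largest step of H2-Ab1 fell between 1 and 2 weeks, at 2.19 ± 0.47. There H2-Aa differed by 0.60 ± 0.16, Cd74 by 0.27 ± 0.21 and H2-Eb1 by -0.46 ± 0.36. This place of the H2-Ab1 step depends on the 1-week arrays, which read 6.63 and 8.30. Leaving out each replicate gave 1.35 to 3.02 for it, and 0.27 to 1.94 for 1 week against never-induced hippocampus. From 2 to 5 weeks H2-Ab1 had the smallest step of the 4, also relative to its SE. H2-Aa and Cd74 were called higher at 5 than at 2 weeks, against 0.0424% of all tested probe sets called higher, 0.0707% lower and 0.113% in either direction. The Cd74 call was lost on leaving out either wild-type array or any single 1-week or 2-week array, with differences of 2.11 to 2.38; without 2-week array 2, H2-Eb1 was called instead (2.44). Against 1 week the 5-week array also gave 2 calls, H2-Aa (3.87 ± 0.20) and Cd74 (2.52 ± 0.26), where 0.538% were called higher and 0.099% lower. Without 1-week array 1 only H2-Aa was called, and without 1-week array 2 H2-Ab1 took the place of Cd74. Without 2-week array 1, the 2-week level of H2-Eb1 lay above its 1-week level by 0.16 instead of below it.

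**Figure D2:**
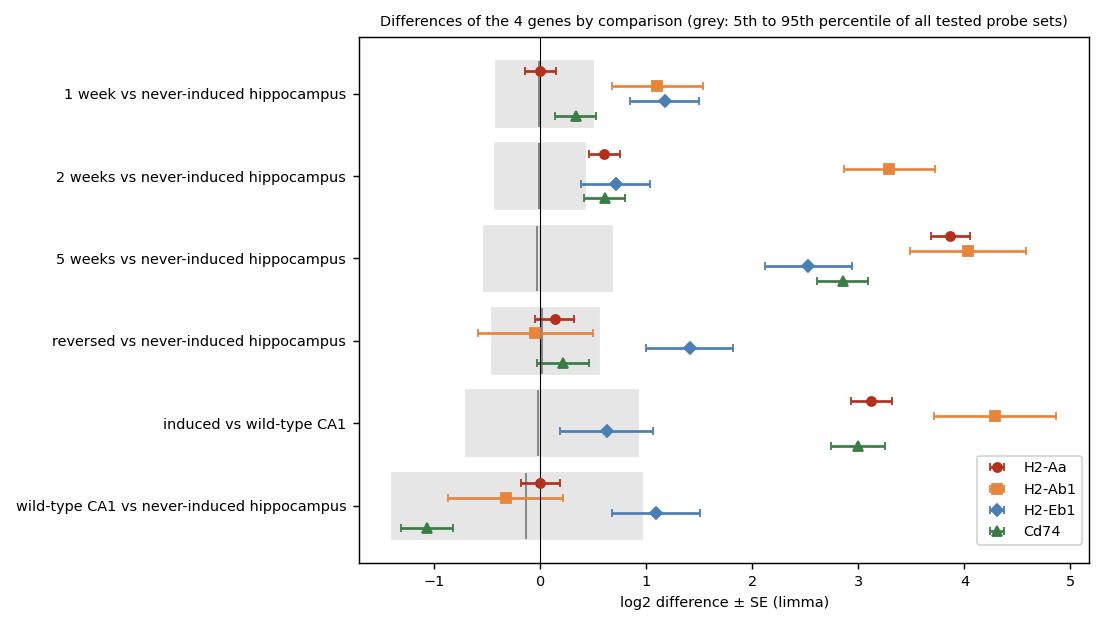
Log2 difference of each gene with its SE from limma, in 6 comparisons; grey bars span the 5th to the 95th percentile of all 7069 tested probe sets and the grey tick is their median. Above the grey bar lie H2-Ab1 (1.10) and H2-Eb1 (1.17) at 1 week, and all 4 genes at 2 weeks (0.60 to 3.29, H2-Ab1 highest) and 5 weeks (2.53 to 4.03). H2-Eb1 alone lies above it after reversal (1.41) and in wild-type CA1 (1.09), and all but H2-Eb1 do in induced against wild-type CA1.

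After reversal, H2-Aa, H2-Ab1 and Cd74 were close to never-induced hippocampus and H2-Eb1 was not. The reversed array differed from the never-induced group by 0.14 ± 0.18 for H2-Aa, -0.05 ± 0.54 for H2-Ab1, 0.22 ± 0.24 for Cd74 and 1.41 ± 0.41 for H2-Eb1. The sign for H2-Ab1 turned to 0.12 without wild-type array 2. As a share of the 5-week difference, 0.04 was left for H2-Aa, -0.01 for H2-Ab1, 0.08 for Cd74 and 0.56 for H2-Eb1. As a share of the smaller 2-week difference, 0.23 was left for H2-Aa, -0.01 for H2-Ab1, 0.36 for Cd74 and 1.98 for H2-Eb1. The reversed mice had the transgene on for 3 weeks, between these times, and all are different mice. For H2-Aa all 3 never-induced arrays lay at the floor, so both of its shares depend on the floor. The reversed array lay above all never-induced arrays for H2-Aa, H2-Eb1 and Cd74, as for 31.3% of all tested probe sets. With limma none of the 4 was called in this comparison, nor was any other tested probe set (0%), while 239 had an unadjusted p under 0.05. Against the 5-week array, H2-Aa differed by -3.73 ± 0.23, H2-Ab1 by -4.08 ± 0.66, Cd74 by -2.63 ± 0.30 and H2-Eb1 by -1.12 ± 0.50. H2-Aa and Cd74 were called lower there, against 0.184% of all tested probe sets called lower and 0.0707% called higher. Without wild-type array 2 the call of Cd74 was lost, and H2-Ab1 was also called without either 1-week array.

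In CA1, 3 of the 4 genes were far higher in VC mice than in wild type. H2-Ab1 was at least 19.6-fold (4.29 ± 0.58), H2-Aa at least 8.70-fold (3.12 ± 0.20) and Cd74 7.98-fold (3.00 ± 0.26) higher. H2-Eb1 was 1.54-fold higher (0.63 ± 0.44), with both VC arrays above the wild-type array by 0.43 and 0.82. H2-Ab1, H2-Aa and Cd74 were called, against 1.13% of all tested probe sets called higher and 1.26% called in either direction. Both VC CA1 arrays lay above the wild-type array for all 4 genes, as for 29.4% of all tested probe sets. The wild-type side is 1 array, so its own spread is not known.

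Wild-type CA1 and never-induced hippocampus differed in opposite directions for H2-Eb1 and Cd74. H2-Eb1 was higher in wild-type CA1 by 1.09 ± 0.41 and Cd74 was lower by a log2 difference of -1.07 ± 0.24. Cd74 was called lower, as were 8.74% of all tested probe sets, with 2.83% called higher, and that call was lost on leaving out any of the 3 never-induced arrays (-1.17 to -1.01). H2-Aa and H2-Ab1 lay at the floor in wild-type CA1. Of the hippocampal arrays, only wild-type array 1 was deposited on the scale of the CA1 arrays. Against that array alone, wild-type CA1 read 8.01 against 9.19 for Cd74 and 8.11 against 6.88 for H2-Eb1. With the scale as a block in the fit the call of Cd74 was lost.

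The size of the VC difference in CA1 was set against the mean of the 2-week and 5-week differences in hippocampus. CA1 exceeded it by 1.27 ± 0.31 for Cd74, 0.89 ± 0.24 for H2-Aa and 0.63 ± 0.70 for H2-Ab1, and H2-Eb1 fell short of it with -0.99 ± 0.53. That mean includes the low 2-week differences. Beside the 5-week difference alone, CA1 was smaller for H2-Eb1 (0.63 against 2.53). For Cd74 it was larger by less than the SE (3.00 against 2.85). For H2-Aa (3.12 against 3.87) and H2-Ab1 (4.29 against 4.03) both differences are lower bounds, since the lower groups held floored arrays. Their order, and their excess over the mean given above, thus depend on the floor. The comparisons with the 5-week difference were not tested. The mean level in VC CA1 lay below the 5-week array for all 4 genes. None of the 4 was called, where 0.141% of all tested probe sets were called higher and 0.0141% lower. The times differ, 3 weeks in CA1 against 2 and 5 weeks in hippocampus.

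Each gene can be ordered over the groups by its mean level. H2-Aa ran from the floor (never induced, 1 week, wild-type CA1) through reversed and 2 weeks to VC CA1 and 5 weeks. H2-Ab1 ran from wild-type CA1, reversed and never induced, whose values overlap or nearly so, through 1 and 2 weeks to VC CA1 and 5 weeks, which also overlap. H2-Eb1 ran from never induced through 2 weeks, wild-type CA1, 1 week and reversed, which do not separate, to VC CA1 and 5 weeks. Cd74 ran from wild-type CA1 through never induced, reversed, 1 week and 2 weeks, with small steps, to VC CA1 and 5 weeks.

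Over the 12 arrays the 4 genes were positively correlated in all pairs, with Pearson's r from 0.58 (H2-Ab1 and H2-Eb1) to 0.92 (H2-Aa and Cd74). These are descriptions without a test, since the arrays fall into groups, share a scale and include the 5-week array. Over the 9 hippocampal arrays r was 0.98 for H2-Aa and Cd74 and 0.53 for H2-Ab1 and H2-Eb1. Over the 8 without the 5-week array r was 0.85 for H2-Aa and H2-Ab1 but 0.09 for H2-Aa and H2-Eb1 and 0.23 for H2-Ab1 and H2-Eb1. Within hippocampus the correlation of H2-Eb1 with both I-A chains thus rested largely on the 5-week array.

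Some other genes of the class II pathway were also higher at 5 weeks, chiefly lysosomal proteases and Lag3. The list held 29 symbols, of which 22 were on the array and 17 were tested. It was chosen with earlier results of these arrays known. Its counts beside the share over all probe sets are therefore a description, not a test of enrichment. At 5 weeks 4 of the 17 were called higher and none lower, against 0.863% called higher and 0.127% called lower among all tested probe sets. Their median log2 difference was 0.48, against -0.03 over all tested probe sets. The 4 were 3 cathepsins, which are lysosomal proteases, and Lag3, a CD4-related receptor that binds class II. Ctsz differed by 2.37 ± 0.22 (adjusted p = 0.00271, limma with Benjamini-Hochberg adjustment). Lag3 differed by 2.80 ± 0.33 (adjusted p = 0.00702, limma), Ctss, which cleaves the invariant chain, by 1.60 ± 0.26 (adjusted p = 0.0242, limma) and Ctsl by 1.13 ± 0.20 (adjusted p = 0.0359, limma). The count of 4 fell to 2 without wild-type array 2 or without either 1-week array, and was 0 without rescaling of the deposited values.

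In CA1, Ctsz rose by 2.23 ± 0.23 (adjusted p = 0.00558, limma), the only call among the 17 there, with a list median of 0.85 against -0.02 over all tested probe sets. The count was 2 without either 1-week array or VC array 1, and 3 without VC array 2. Against never-induced hippocampus none of the 17 passed at 2 weeks or after reversal. Against the 5-week array, Ctsz was lower after reversal by a log2 difference of -2.20 ± 0.27 (adjusted p = 0.0243, limma). Ctsz read 8.60 to 8.90 on the never-induced arrays and 8.79 and 9.11 at 1 week. The 2-week arrays read 9.65 and 9.78, the 5-week array 11.11 and the reversed array 8.91. Wild-type CA1 read 8.49 and the VC CA1 arrays 10.82 and 10.63.

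The genes that load peptide onto class II did not pass at 5 weeks or in VC against wild-type CA1. H2-DMa and H2-DMb1 encode the DM editor that exchanges peptide on class II. At 5 weeks H2-DMa differed by 0.51 ± 0.20 (adjusted p = 0.557, limma) and H2-DMb1 by 1.06 ± 0.49 (adjusted p = 0.710, limma). In CA1 they differed by 0.59 ± 0.21 and 1.77 ± 0.52. H2-Oa, a chain of the DO modulator of DM, differed by 0.29 ± 0.64 at 5 weeks and 2.16 ± 0.68 in CA1, and H2-DMb2 by -0.78 ± 0.43 and 1.24 ± 0.46. The wild-type CA1 array of the H2-DMb2 comparison read 6.12, below never-induced hippocampus by a log2 difference of -2.83 ± 0.43 (adjusted p = 0.00841, limma), and VC CA1 read 7.04 and 7.68. Closely related DM sequences can share probes, so the H2-DMb1 and H2-DMb2 values may not be separate.

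The tested genes of RFX and NF-Y did not pass at 5 weeks or in VC against wild-type CA1 either. Rfxank was lower in wild-type CA1 than in never-induced hippocampus (-1.06 ± 0.27, adjusted p = 0.0412, limma). At 5 weeks Rfxank, a subunit of RFX, differed by -0.35 ± 0.27. The NF-Y subunits Nfya, Nfyb and Nfyc differed by -0.14 ± 0.25, -0.25 ± 0.40 and -0.04 ± 0.18. Ciita, the coactivator, lay under the filter: it read 7.67 to 8.63 over the hippocampal arrays, with 7.95 at 5 weeks, and 7.54 in wild-type against 7.08 and 6.92 in VC CA1. Ifi30, a lysosomal reductase of antigen processing, also lay under the filter. It was at the floor on 6 of the 9 hippocampal arrays, read 7.37 at 5 weeks, and read 8.62 and 8.39 in VC CA1 against the floor in wild type. H2-Ea, the alpha chain that pairs with H2-Eb1, lay at the floor on all 12 arrays, and H2-Eb2 lay at the floor on all but wild-type array 2, which read 6.16.

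**Figure D3:**
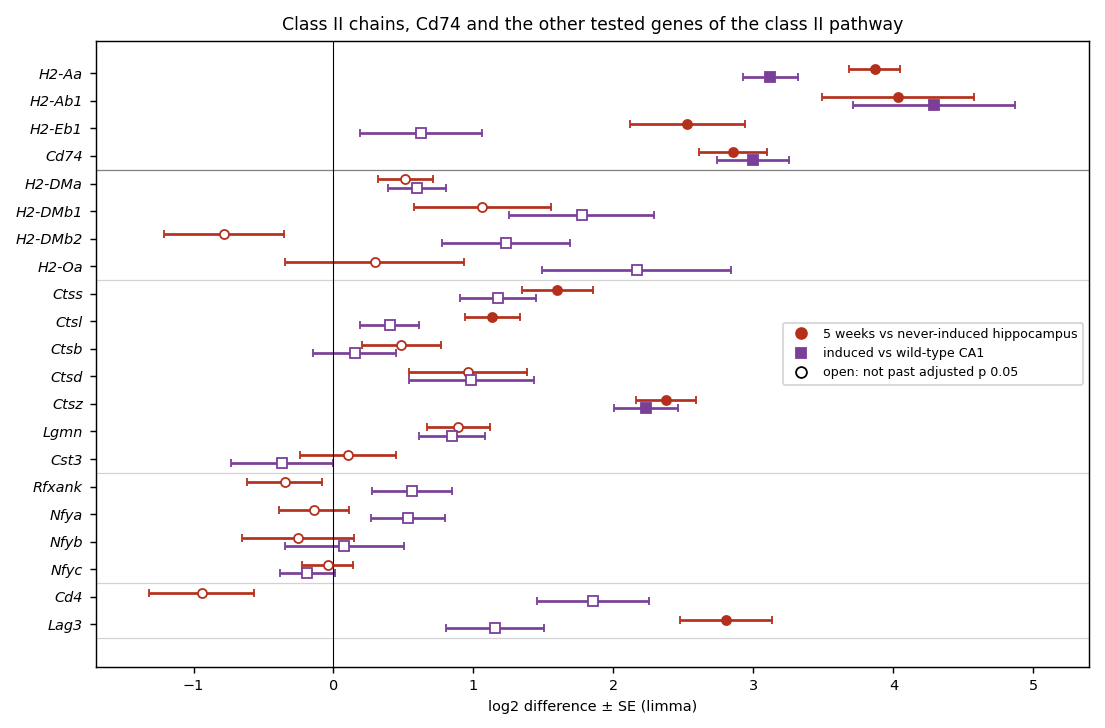
Log2 difference with its SE from limma for the 4 genes and the 17 other tested genes of the class II pathway, at 5 weeks against never-induced hippocampus (circles) and in induced against wild-type CA1 (squares). Filled symbols passed an adjusted p of 0.05, which is a description for the 4 genes; of the others, Ctss, Ctsl, Ctsz and Lag3 are filled at 5 weeks and Ctsz in CA1.

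Interferon gamma is the best known inducer of class II, and 11 of 20 listed genes of its pathway on the array were tested. At 5 weeks 3 were called higher and none lower, against 0.863% called higher and 0.127% called lower among all tested probe sets. The list median was 0.86, against -0.03 over all tested probe sets. This list was also chosen with earlier results of these arrays known, so its counts are a description. The 3 were Psmb9 (2.64 ± 0.38, adjusted p = 0.0149, limma) and Psmb8 (1.65 ± 0.29, adjusted p = 0.0433), subunits of the immunoproteasome, and Gbp3 (1.88 ± 0.33, adjusted p = 0.0417), a guanylate-binding protein. The count was 0 without wild-type array 1 or the array on dox, and 1 without wild-type array 2 or any single 1-week or 2-week array. In CA1 and at 2 weeks none passed, except that 1 did in CA1 without VC array 1. Irf1, a transcription factor that interferon gamma induces, differed by -0.07 ± 0.44 at 5 weeks and -0.32 ± 0.47 in CA1. Ifng, interferon gamma itself, lay at the floor on all 12 arrays. Of 6 costimulation genes on the array, the molecules that accompany class II on antigen-presenting cells, Cd83 alone was tested; it differed by 0.64 ± 0.48 at 5 weeks (adjusted p = 0.928, limma) and 0.89 ± 0.51 in CA1 (adjusted p = 0.582, limma).

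In bulk tissue, fewer or more cells of a type and a different level of RNA per cell cannot be told apart. Markers of microglia and macrophages were higher at 5 weeks and in VC CA1. Of 28 listed genes, 25 were on the array and 20 were tested. Earlier results of these arrays were known when the list was chosen, so its counts are a description, not a test of enrichment. At 2 weeks Cd52 was the only one of the 20 called higher (1.61 ± 0.17, adjusted p = 0.0144, limma), against 0.156% of all tested probe sets. That count was 0 without any single never-induced array or either 2-week array, and 2 without either VC CA1 array. At 5 weeks 8 of 20 were called higher and none lower, against 0.863% called higher among all tested probe sets. The list median was 1.56, against -0.03 over all. The 8 included the complement genes C1qa (2.14 ± 0.24), C1qb (1.60 ± 0.23) and C1qc (1.80 ± 0.19), and Tyrobp (2.50 ± 0.38), a microglial signalling adaptor. Without the array on dox the count was 5. In CA1 8 were called higher, against 1.13% of all tested probe sets, with a list median of 1.54 against -0.02 over all. The count there was 4 without wild-type hippocampus array 2. Cx3cr1, a receptor of resting microglia, differed by -0.23 ± 0.24 at 5 weeks, and Spi1, a myeloid transcription factor, by 0.52 ± 0.30, and neither passed.

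The summed rescaled intensity of the 25 microglia and macrophage genes was 18968 to 21005 on the never-induced arrays, 19502 and 19868 at 1 week and 31961 and 33387 at 2 weeks. The 5-week array had 56900, the reversed array 25776, wild-type CA1 27378 and the VC CA1 arrays 73518 and 75282. The sum was 2.84 times the never-induced mean at 5 weeks, and 2.69 and 2.75 times wild type in VC CA1. The sum and both H2-Aa and Cd74 were highest on the 5-week and VC CA1 arrays. H2-Eb1 had another course, with log2 differences from never-induced hippocampus of 1.17 at 1 week, where the sum was 0.97 and 0.99 times the never-induced mean, and 1.41 after reversal, where it was 1.29 times. The part of microglia in the class II differences was not tested.

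Summed markers of dendritic cells and B cells, which carry class II, and of T and NK cells and monocytes were also measured. Such a sum follows its brightest genes and can miss a difference in a dim one. The dendritic cell sum (9 genes) was 12351 to 13586 on the never-induced arrays and 11820 at 5 weeks. In CA1 it was 11839 for wild type and 10817 and 11168 for VC. Itgax, which encodes CD11c and is also found on reactive microglia, was its only called gene, at 1.54 ± 0.23 at 5 weeks (adjusted p = 0.0170, limma) and 1.59 ± 0.24 in CA1 (adjusted p = 0.0204, limma). The B cell sum (11 genes) was 3023 to 3267, 3424, 2782 and 3325 to 3523 in the same order of groups. The T and NK cell sum (15 genes) was 2494 to 2770, 2249, 1849 and 1831 to 2390, and 8 of these genes lay at the floor at 5 weeks. Cd2 and Cd8b1 were at the floor on all 12 arrays, and Cd3e read 6.04 to 6.63, with 6.04 at 5 weeks and in CA1. The sum for monocytes and border macrophages (8 genes) was 879 to 1281, 893, 552 and 449 to 780.

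Choroid plexus markers, which mark tissue next to the hippocampus, also varied. Their sum (6 genes) was 5238 to 8099 on the never-induced arrays, 15039 and 16301 at 1 week, and 6495 and 10990 at 2 weeks. The 5-week array had 13240, the reversed array 4916, wild-type CA1 4811 and the VC CA1 arrays 4932 and 6397. The sum was 2.12 and 2.30 times the never-induced mean at 1 week, where H2-Eb1 differed by 1.17, H2-Ab1 by 1.10 and H2-Aa lay at the floor. It was 1.87 times that mean at 5 weeks, where all 4 genes were highest in hippocampus. In VC CA1 the sum was 1.03 and 1.33 times that of wild-type CA1, and 0.70 and 0.90 times the never-induced hippocampal mean. Its part in the class II differences was not tested. The sum of 4 dentate granule cell markers was 3171 to 3321 on the never-induced arrays and 1432 at 5 weeks, and Lct among them fell by 1.54 ± 0.21 (adjusted p = 0.0116, limma). The sum of 2 blood genes was 5089 to 6829 on the never-induced arrays, 11189 at 5 weeks and 7063 and 15278 at 1 week. Their part was not tested either.

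**Figure D4:**
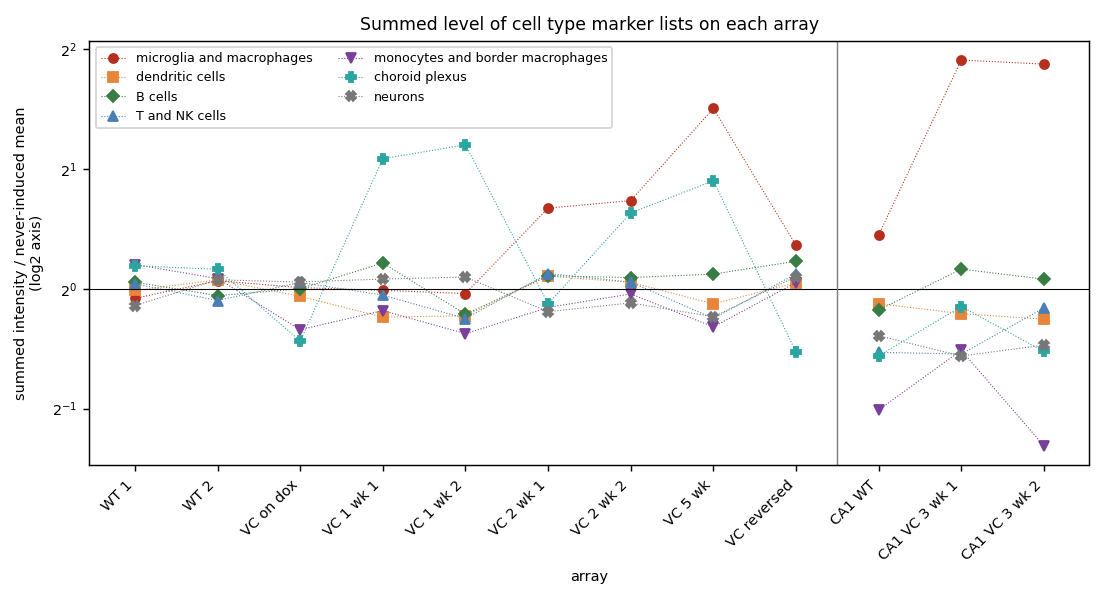
Summed rescaled intensity of 7 marker lists on each array, divided by the mean of the 3 never-induced arrays, on a log2 axis. The microglia and macrophage list reaches 2.84 at 5 weeks and is high in VC CA1, while the dendritic, B, and T and NK cell lists run from 0.84 to 1.17 in hippocampus.

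The genes whose profile was most like the mean profile of the 4 chains were taken by Pearson's r over the 12 arrays, among tested probe sets with a single symbol. The 8 highest were Ctsz (r = 0.99), Ifitm3 (0.96), B2m (0.95), H2-K1 (0.95), Tmem176b (0.94), H2-Q4 (0.94), Ctsh (0.94) and Grn (0.94). Over the 9 hippocampal arrays r was 0.91 to 0.99. These values share the same arrays and are a description, with no test. B2m encodes the light chain of MHC class I, and H2-K1 and H2-Q4 encode class I heavy chains, whose probe sets here can be shared among class I genes. Ctsh is a lysosomal protease, Grn encodes progranulin, a lysosomal and secreted protein, and Ifitm3 is an interferon-induced membrane protein.

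Since these 8 genes were taken for a profile that is high at 5 weeks and in VC CA1, their differences there are given here without a test. Ctsz has adjusted p values above only as a member of the class II pathway list. At 5 weeks they ran from 0.60 ± 0.17 for Tmem176b and 1.16 ± 0.20 for Grn to 2.37 ± 0.22 for Ctsz and 2.78 ± 0.44 for H2-Q4. In CA1 they ran from 0.62 ± 0.18 for Tmem176b to 2.23 ± 0.23 for Ctsz, with H2-K1 at 1.74 ± 0.21 and B2m at 1.65 ± 0.40. At 2 weeks the class I genes H2-Q4 (1.48 ± 0.35) and H2-K1 (1.23 ± 0.16) had the largest differences of the 8.

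**Figure D5:**
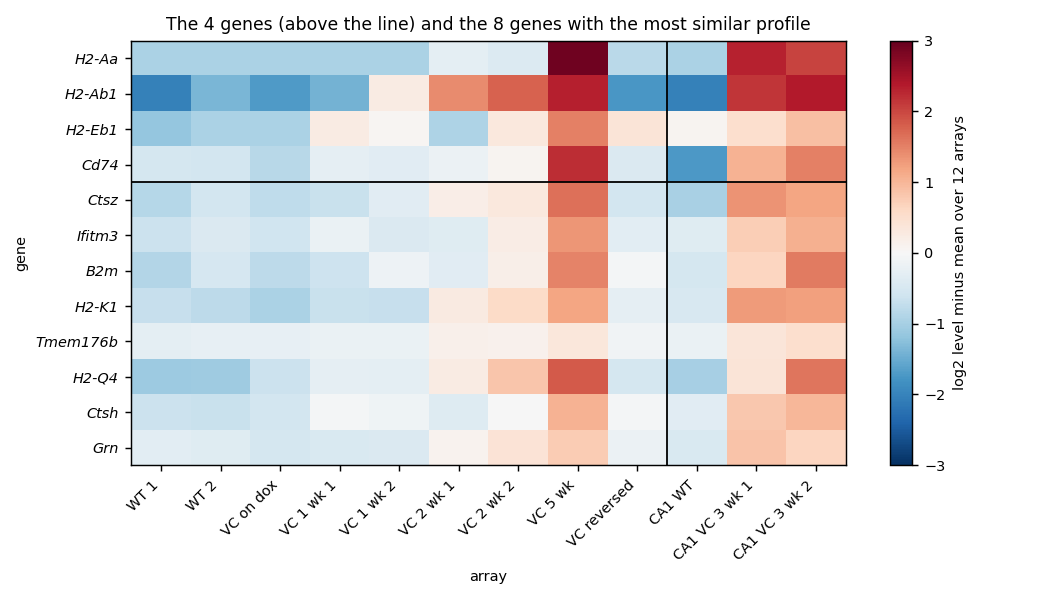
Log2 level minus the gene's mean over the 12 arrays, for the 4 genes (above the line) and the 8 genes with the highest r to their mean profile; the vertical line separates hippocampus from CA1. The 5-week array and both VC CA1 arrays lie above the mean in every row, and of the 12 rows H2-Ab1 is the farthest above its mean at 2 weeks, at 1.42 and 1.77.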

How the data were processed

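RNA was measured on Affymetrix MG-U74Av2 arrays, 12 in all. The authors deposited linear intensity values made with GCOS, per the submitters' processing notes. As to the version, algorithm and scaling of GCOS: not given in the sources used here. Trimmed means, without 2% of values at each end, were about 500.3 for wild-type hippocampus array 1 and the CA1 group, against about 3002 for the remaining 8 arrays. Each array was rescaled to 1000, floored at the 20th percentile of the 12422 probe sets that are no controls (66 are), and log2 transformed. Of these, 7069 were tested. A single symbol was given to 10833 probe sets, several to 396 and none to 1193.

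The model was fitted by limma 3.58.1 under R 4.3.3 with 7 levels, with 5 residual degrees of freedom, two-sided, adjusted by Benjamini-Hochberg over all tested probe sets at 0.05. The fit was tested on simulated data. The number of arrays limits the precision. Folds are given as "at least" if the lower group held a floored array. The members and the lists were chosen with earlier results of these data known. Named genes were the members, the class II pathway list, called genes or defining markers of the other lists, and the 8 genes most like the members' mean profile. Alternatives changed the floor, filter, scaling, levels, arrays and variance model, and left out each replicate.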

Additional observations from a re-analysis of the deposited data

How the results depend on the processing

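The 23 alternatives moved sizes and calls more than directions. For the median log2 difference of the 4 genes (0.72 at 1 week, 0.66 at 2 weeks, 3.36 at 5 weeks, all against never-induced hippocampus), a floor at the 40th percentile gave 0.28 at 1 week and 2.30 at 5 weeks, and values as deposited gave 1.33, 1.43 and 4.05. With that floor 5 weeks against 1 week was 2.19 (main 2.72), reversed against 5 weeks -2.30 (main -3.18), and CA1 1.89 (main 3.06). A floor at the 10th percentile gave 3.56 in CA1. The filter at 4 arrays keeps only H2-Ab1 and Cd74, and its medians were 1.95 at 2 weeks, 1.23 for 2 weeks against 1 week, 1.49 for 5 against 2 weeks, 3.64 in CA1 and -0.70 for wild-type CA1 against never-induced hippocampus (main -0.16). Values as deposited gave 1.00 for reversed against never-induced, 2.18 in CA1 and -0.94 for wild-type CA1. For CA1 minus the late hippocampal effect (main 0.76) the 40th percentile floor gave 0.29, and values as deposited reversed it to -1.34, with H2-Aa at -1.43 and H2-Ab1 at -1.25. They also reversed H2-Eb1 in wild-type CA1 against hippocampus, to -0.86. The deposited scale separates these groups, so unscaled values carry it. For H2-Ab1 after reversal the sign turned to 0.10 (10th percentile floor), 0.30 (as deposited) and 0.073 (unfloored values plus 16, chosen after seeing the data). Leaving out each replicate gave -0.21 to 0.12 for it, and -1.09 to 0.16 for H2-Eb1 in 2 weeks against 1 week. The cause of the other changes was not tested.

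Of the calls, the 1 at 2 weeks became 0 with the 10th percentile floor, no filter, quantile normalization, values as deposited, deposited scale as a block, only the arrays of the higher scale, and wild type as the reference. The 4 at 5 weeks became 2 with no filter or the filter at 4 arrays. The 2 for 5 against 2 weeks became 1 with the filter at 4 arrays, the scale block, or trend and robust settings. The 2 for 5 weeks against 1 week became 1 with the filter at 4 arrays. The 2 lower after reversal than at 5 weeks became 1 with the filter at 4 arrays or trend and robust settings. The 1 lower in wild-type CA1 became 0 with quantile normalization, the scale block or wild type as the reference. With no filter 1 gene was called for CA1 minus hippocampus (main 0). With values as deposited, these counts were 0 at 5 weeks, in CA1 and in the others named here.

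Leaving out each replicate gave medians of 0.32 to 0.80 at 1 week, 0.57 to 1.04 at 2 weeks, 1.65 to 2.41 for 5 against 2 weeks and 2.32 to 3.12 for 5 against 1 week. The counts were 0 to 1 at 2 weeks, 3 to 4 at 5 weeks, 1 to 2 for 5 against 2 weeks and for 5 against 1 week, 1 to 3 lower after reversal, and 0 to 1 for wild-type CA1. The next ranges are over all alternatives that could be fitted, not only those that left out a replicate. The counts over all tested probe sets ran from 2 to 22 at 2 weeks (main 11), 2 to 94 at 5 weeks (main 70) and 0 to 381 in CA1 (main 89). They ran from 0 to 5 at 1 week (main 2), 0 to 13 for 2 against 1 week (main 0) and 0 to 28 for 5 against 2 weeks (main 8). They were 1 to 67 for 5 against 1 week (main 45), 0 to 41 for reversed against never-induced (main 0), 0 to 72 for reversed against 5 weeks (main 18), 1 to 1674 for wild-type CA1 (main 818) and 0 to 188 for CA1 minus hippocampus (main 11). Over the same alternatives, called list genes at 5 weeks ran from 0 to 4 for the class II pathway and 0 to 3 for interferon gamma. For microglia they ran from 0 to 12. In CA1 the ranges were 0 to 3, 0 to 1 and 0 to 9, in that order. The replicate block could be fitted for the numbered hippocampal arrays only. With or without the replicate block the 2-week count there was 0. The samples share only a number: deviations of same-numbered arrays correlated at 0.04, 0.02 and -0.10.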
